A study of Homo sapiens with 16 samples.

Results

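The genes described here are 40 human genes of the integrated stress response and the unfolded protein response, out of 58676 gene identifiers in the deposited count tables. They were chosen as known targets of the transcription factor ATF4 in amino acid and stress metabolism, as chaperone targets of XBP1 and ATF6, and as the sensors and regulators of both responses. Their symbols were matched to Ensembl identifiers, and all 40 passed the filter on low counts in both cell lines. RNA was sequenced from 2 human cell lines, the lung cancer line A549 and the triple-negative breast cancer line SUM159. Each line was untreated (UT), given 2 µM palbociclib (PD), given 3 µM indisulam (IN) or given both drugs at these doses (P+I), for 16 h. Palbociclib inhibits the cell cycle kinases CDK4 and CDK6. Indisulam brings the splicing factor RBM39 to the DCAF15 ubiquitin ligase, which leads to its degradation. Each of the 8 groups held 2 libraries, which the study calls technical duplicates, so that every p-value measures only the spread between these libraries and not that between independent cultures. The lines were grown in different media, RPMI for A549 and DMEM/F12 with insulin and hydrocortisone for SUM159, so line and medium cannot be told apart.

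The unfolded protein response senses unfolded proteins in the endoplasmic reticulum (ER) through the membrane proteins IRE1 (gene ERN1), ATF6 and PERK (gene EIF2AK3). IRE1 splices the XBP1 mRNA into a form that encodes an active transcription factor, ATF6 is cut to release another, and the pair induce chaperones and the degradation of misfolded ER proteins. PERK phosphorylates the translation factor eIF2, as do the kinases GCN2, PKR and HRI, and this lowers general protein synthesis while ATF4 is translated. ATF4 induces genes of amino acid synthesis, amino acid uptake and tRNA charging, together with the stress factors DDIT3 (also called CHOP), TRIB3 and CHAC1. Much of this control acts on translation, protein cleavage and splicing, which gene counts do not resolve. The values below are mRNA levels only.

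Gene counts per library ran from 18306636 to 34075588, so that 3 counts, taken as the floor, stood for 0.088 to 0.164 CPM (counts scaled to a common library size with the TMM method, within each line). Between duplicates, the members with a mean of at least 5 CPM differed by a median of 0.064 on the log2 scale over 38 members of A549 and 0.041 over 35 members of SUM159. Among lineage markers, A549 held KRT8, KRT18, EPCAM and CDH1, while the alveolar genes SFTPA1, SFTPB, SFTPC and NKX2-1 were at or near 0. A549 also held VIM at 699 to 930 CPM. SUM159 held VIM and FN1 at 1797 to 4144 CPM and, of the epithelial genes, KRT8 at 533 to 792 CPM and KRT18 at 326 to 450 CPM, while EPCAM, CDH1 and KRT19 read at most 0.682 CPM. There the blood cell gene PTPRC read 3.05 to 4.54 CPM. PTPRC read at most 0.0956 CPM in A549. ESR1 and PGR, the hormone receptors, read at most 0.796 CPM in all libraries, and ERBB2 read 98.4 to 145 CPM in SUM159 and 106 to 138 CPM in A549. RBM39 mRNA read 173 and 178 CPM in untreated and 367 and 362 CPM in indisulam-treated A549, and 230 and 224 against 486 and 479 CPM in SUM159, with no overlap of the groups. The drug acts on the RBM39 protein, which these libraries do not measure, so this mRNA does not test the labels. On Western blots of both lines, at other doses and times, the paper reports loss of RBM39 protein with indisulam and with the combination.

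Against untreated cells, indisulam lowered more members than it raised in both lines, and palbociclib raised more than it lowered in SUM159. With palbociclib, 14 of the 40 members rose and 11 fell in A549, where 22% of all 15744 genes tested rose and 21.1% fell. In SUM159, 17 rose and 9 fell, against 25.5% and 29% of 16080 genes. With indisulam in A549, 4 members rose and 29 fell (23.3% and 25.9% of all genes). The 4 were ATF3, NUPR1, PPP1R15A and SLC7A5. The 29 that fell are 72.5% of the members, and the median change over the members was -0.32 on the log2 scale beside 0.01 over all genes. With indisulam in SUM159, 9 rose and 18 fell (21.9% and 24.9% of all genes), with a median of -0.09 beside 0.01.

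With the combination, 5 members rose and 25 fell in A549 (27.4% and 30.4% of all genes, median -0.41 beside 0.00), and SEL1L joined the 4 that rose with indisulam. Such small sets were named after their values were seen. In SUM159, 12 rose and 17 fell (32.2% and 33.1%, median 0.01 beside 0.01). All counts are of genes with an adjusted p under 0.05 in edgeR's quasi-likelihood test over the 8 libraries of a line. The 3 comparisons of a line share its 2 untreated libraries. In RNA from bulk cultures, less RNA per cell and fewer cells that express a gene cannot be told apart.

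**Figure D1:**
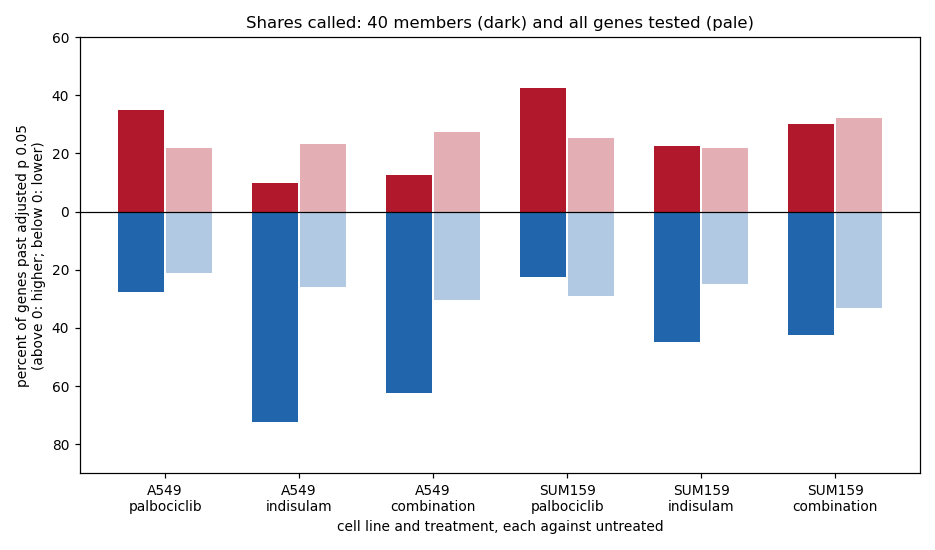
Percent of the 40 members (dark bars) and of all genes tested (pale bars) that were higher (above the zero line) or lower (below it) than in untreated cells, at an adjusted p under 0.05, for each line and treatment. The dark bar below zero for indisulam in A549 reaches 72.5%, beside 25.9% of all genes.

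The palbociclib split in A549 became 7 higher and 9 lower with DESeq2's Wald test, 8 and 10 without untreated replicate 2 or without palbociclib replicate 2, 10 and 11 without palbociclib replicate 1, 11 and 11 without either indisulam replicate, and 12 and 12 without the low-count filter. With scaling to total counts it widened to 18 higher and 10 lower, and the median over all genes in A549 shifted by 0.06. The same scaling shifted the median over all genes in SUM159 by 0.11 for palbociclib and by 0.15 for the combination. The split of members in SUM159 then became 23 higher and 6 lower with palbociclib, and 21 higher and 9 lower with the combination. For the combination in A549 the median over all genes shifted by 0.09, with 6 members higher and 23 lower. Small changes in either line are therefore read against these shifts.

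**Figure D2:**
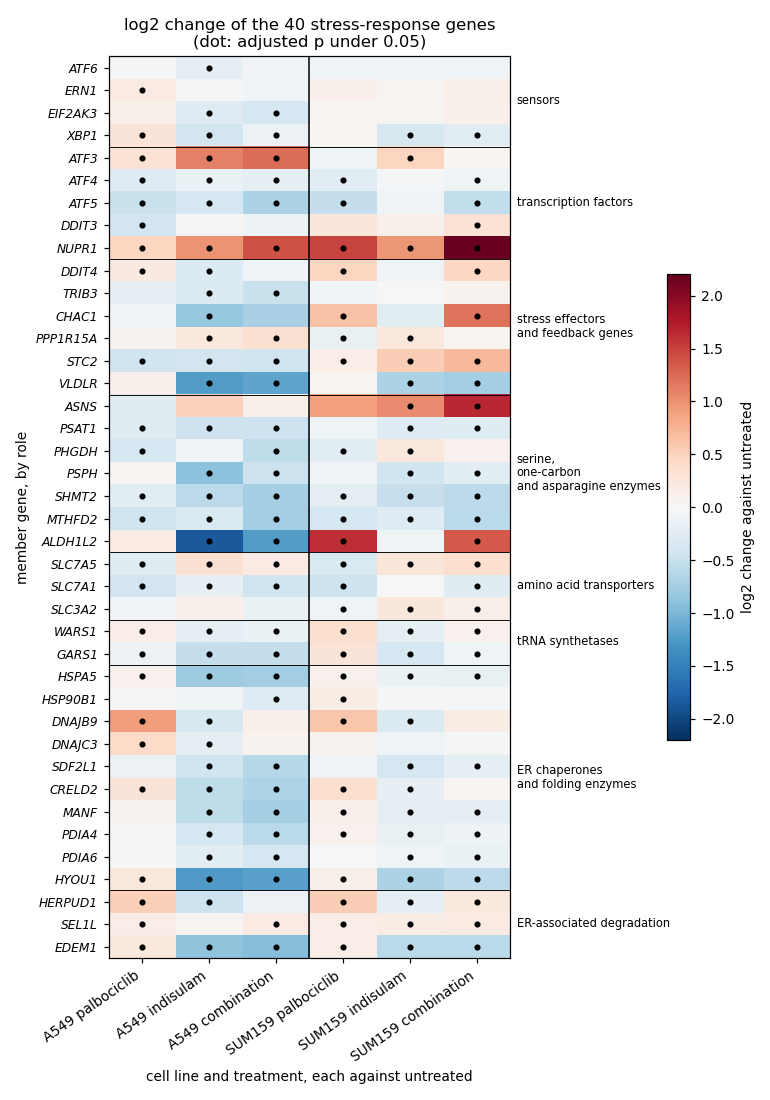
Log2 change of each of the 40 members (rows, by role) in A549 and SUM159 with palbociclib, indisulam or the combination, each against untreated (columns). Red is higher, blue is lower, and a dot marks an adjusted p under 0.05. The chaperone and ER-associated degradation rows are mostly blue with indisulam and pale or red with palbociclib, and NUPR1 is red in all 6 columns.

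Of the 4 genes grouped as sensors, which include XBP1 as the target of IRE1, XBP1 mRNA fell with indisulam in both lines. XBP1 (chr22:28794555-28800597, GRCh38) gives the transcription factor that IRE1 activates. Untreated A549 libraries read 119 and 113 CPM, those given palbociclib 138 and 145, indisulam 87.8 and 88.1 and both drugs 104 and 109. The SUM159 duplicates were at 109 and 105 CPM without drug, 112 and 107 under palbociclib, 82.4 and 85.1 under indisulam and 88.3 and 91.0 under both. Both indisulam duplicates lay below both untreated ones in each line, a change of -0.40 ± 0.048 (SE, log2) in A549 with an adjusted p of 1.04e-05 and of -0.35 ± 0.044 in SUM159 with an adjusted p of 5.15e-06. With the combination the fall held in SUM159 (-0.26 ± 0.043, adjusted p = 5.95e-05), while in A549 (-0.12 ± 0.048, adjusted p = 0.0387) it was lost under DESeq2 (adjusted p = 0.143), with scaling to total counts (-0.04, adjusted p = 0.543), with the compared groups fitted alone (adjusted p = 0.0662) and without untreated replicate 1, combination replicate 1 or either indisulam replicate (adjusted p from 0.0636 to 0.260). Palbociclib raised XBP1 in A549 (0.29 ± 0.047, adjusted p = 1.64e-04), while in SUM159 the change was 0.04 ± 0.043 (adjusted p = 0.506).

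The genes of the sensors themselves, EIF2AK3, ATF6 and ERN1, moved less than XBP1 with indisulam in each line. EIF2AK3, the PERK gene, fell in A549 with indisulam (-0.28 ± 0.070, adjusted p = 0.00468) as well as under both drugs (-0.39 ± 0.072, adjusted p = 3.13e-04). In SUM159 its changes were 0.06 and 0.12 and did not pass. The A549 indisulam call was lost without untreated replicate 2 (-0.22, adjusted p = 0.0635). ATF6 fell in A549 with indisulam alone among the 6 comparisons (-0.22 ± 0.050, adjusted p = 0.00208). ERN1 rose with palbociclib in A549 (0.18 ± 0.066, adjusted p = 0.0388), which DESeq2 did not call (adjusted p = 0.185) and which was lost without any single untreated, palbociclib or indisulam library (adjusted p from 0.0513 to 0.218). It passed in no other comparison with untreated cells.

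Among the 5 genes grouped as transcription factors, NUPR1 rose with every treatment in both lines. NUPR1 (chr16:28532708-28539008) encodes a small chromatin-associated protein induced by many stresses. Its CPM in SUM159 were 5.50 and 5.22 in untreated, 15.8 and 14.6 in palbociclib, 10.6 and 10.4 in indisulam and 24.3 and 24.3 in combination libraries. The A549 duplicates were at 6.51 and 5.35 CPM without drug, 8.03 and 8.47 under palbociclib, 12.4 and 11.1 under indisulam and 16.2 and 15.3 under both. In neither line did a treated library overlap the untreated ones.

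The rise of NUPR1 with the combination was 4.53-fold in SUM159 (log2 2.18 ± 0.090, adjusted p = 1.17e-12) and 2.65-fold in A549 (1.40 ± 0.12, adjusted p = 9.77e-08). With palbociclib alone it was 1.49 ± 0.096 in SUM159 and 0.48 ± 0.12 in A549. The A549 palbociclib call was lost without untreated replicate 2 (adjusted p = 0.0905) or without palbociclib replicate 2 (adjusted p = 0.0598). In GENCODE an exon of NUPR1 overlaps the gene model ENSG00000289754 on its own strand, which leaves the count uncertain.

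ATF3, an early stress factor that acts mostly as a repressor, rose with indisulam in A549. A549 gave 8.11 and 6.93 CPM untreated, 9.90 and 9.11 after palbociclib, 16.95 and 15.51 after indisulam and 17.98 and 17.20 after both drugs. Untreated SUM159 libraries read 3.52 and 3.26 CPM, those given palbociclib 3.53 and 2.92, indisulam 4.85 and 4.61 and both drugs 3.28 and 3.73. The A549 rises of 1.11 ± 0.11 with indisulam (adjusted p = 1.08e-06) and 1.22 ± 0.11 under both drugs (adjusted p = 1.70e-07) stand beside 0.48 ± 0.15 with indisulam in SUM159 (adjusted p = 0.0161). DESeq2 did not call the SUM159 rise (adjusted p = 0.108), and it was lost without untreated replicate 2 or indisulam replicate 1 (adjusted p = 0.103 and 0.0710). A rise of 0.32 with palbociclib in A549 was likewise lost under DESeq2 (adjusted p = 0.123) and without untreated replicate 2 or either palbociclib replicate (adjusted p from 0.0539 to 0.253).

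ATF4 mRNA did not rise in any comparison with untreated cells. ATF4 (chr22:39519695-39522683) is the central factor of the integrated stress response. Its CPM in A549 were 360 and 343 in untreated, 279 and 298 in palbociclib, 313 and 320 in indisulam and 308 and 301 in combination libraries. SUM159 gave 258 and 265 CPM untreated, 222 and 222 after palbociclib, 255 and 259 after indisulam and 242 and 245 after both drugs. All 6 treated A549 libraries lay below both untreated ones.

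The change of ATF4 with palbociclib was -0.28 ± 0.043 for A549 (adjusted p = 9.60e-05) against -0.24 ± 0.035 for SUM159 (adjusted p = 1.85e-05). With indisulam it was -0.15 ± 0.043 for A549 (adjusted p = 0.00921) against -0.03 ± 0.035 for SUM159 (adjusted p = 0.557), which read 0.03 with scaling to total counts. The combination in SUM159 gave -0.10 ± 0.035 (adjusted p = 0.0152), which turned to 0.05 with scaling to total counts and was lost without untreated replicate 2 or combination replicate 1 (adjusted p = 0.0973 and 0.0837). The A549 indisulam call was lost without untreated replicate 1 or indisulam replicate 1 (adjusted p = 0.117 and 0.0895).

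ATF5, a relative of ATF4 that is also controlled by translation, fell with palbociclib in both lines. Its level went from 30.1 and 28.7 CPM untreated to 19.1 and 22.5 in A549, and from 30.9 and 30.6 to 20.6 and 22.2 in SUM159. The changes were -0.49 ± 0.092 (adjusted p = 6.38e-04) and -0.52 ± 0.063 (adjusted p = 2.18e-06). With the combination the changes were -0.69 ± 0.096 in A549 and -0.55 ± 0.063 in SUM159.

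DDIT3, the factor CHOP that favours cell death under lasting stress, stayed at a low level in every library. Untreated A549 libraries read 8.01 and 8.45 CPM, those given palbociclib 6.46 and 5.95, indisulam 7.79 and 8.91 and both drugs 7.13 and 8.16. The SUM159 duplicates were at 6.51 and 5.32 CPM without drug, 7.20 and 6.99 under palbociclib, 5.90 and 6.88 under indisulam and 7.61 and 7.11 under both. It fell with palbociclib in A549 (-0.42 ± 0.12, adjusted p = 0.0134) and rose with the combination in SUM159 (0.32 ± 0.13, adjusted p = 0.0339), and DESeq2 called neither (adjusted p = 0.0729 and 0.135). The first was also lost without untreated or palbociclib replicate 2 (adjusted p = 0.0782 and 0.112), and the second without untreated replicate 2 or combination replicate 1 (adjusted p = 0.329 and 0.161). Exons of DDIT3 overlap the gene model ENSG00000285133 on the same strand and MARS1 on the other.

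**Figure D3:**
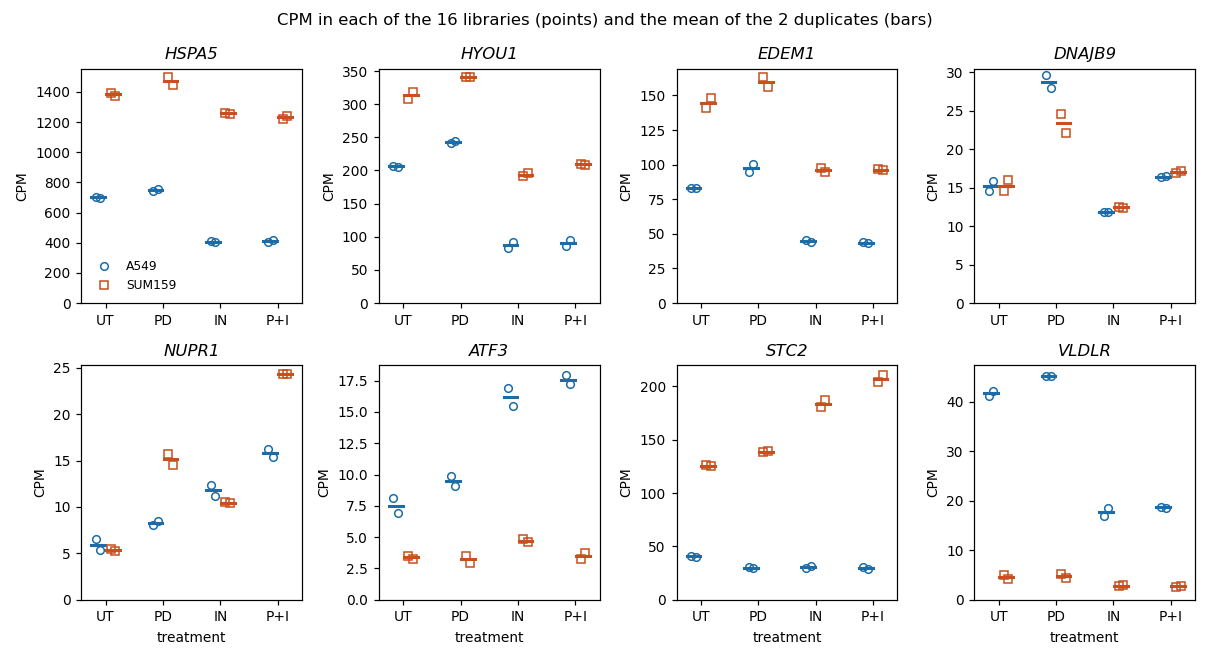
CPM of 8 members in each of the 16 libraries (circles for A549, squares for SUM159), by treatment, with the mean of the 2 duplicates as a short line. Each axis starts at 0. HSPA5, HYOU1 and EDEM1 step down in A549 with indisulam and with the combination, NUPR1 steps up with each treatment, and STC2 moves down in A549 and up in SUM159.

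Of the 6 stress effectors and feedback genes, 5 fell and 1 rose with indisulam in A549 (median log2 change -0.35 beside 0.01). There 25.9% of all genes were lower and 23.3% higher. In SUM159, 1 fell and 2 rose, beside 24.9% and 21.9% of all genes. STC2, a secreted glycoprotein induced by ER stress, moved in opposite directions in the 2 lines. The A549 duplicates were at 41.1 and 40.2 CPM without drug, 30.4 and 30.1 under palbociclib, 30.0 and 31.4 under indisulam and 30.8 and 29.3 under both. Its CPM in SUM159 were 126 and 125 in untreated, 138 and 139 in palbociclib, 180 and 188 in indisulam and 204 and 211 in combination libraries. Every treated library lay below the untreated ones in A549 and above them in SUM159, where the combination gave 0.72 ± 0.038 (adjusted p = 3.67e-11) against -0.44 ± 0.062 in A549 (adjusted p = 2.66e-05).

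VLDLR, a lipoprotein receptor gene induced through PERK and ATF4, fell with indisulam in both lines. In A549 its level dropped from 41.1 and 42.3 CPM untreated to 16.95 and 18.61 under indisulam and 18.7 and 18.6 under both drugs, while it read 45.1 and 45.2 with palbociclib. In SUM159, where it was low, it dropped from 4.97 and 4.26 CPM to 2.77 and 2.91 under indisulam and 2.65 and 2.85 under both drugs. The indisulam changes were -1.23 ± 0.067 (adjusted p = 3.41e-09) and -0.70 ± 0.16 (adjusted p = 0.00147). An antisense gene, VLDLR-AS1, overlaps it on the other strand.

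CHAC1, which degrades glutathione and is a standard ATF4 and CHOP target, was low in both lines. Untreated SUM159 libraries read 2.32 and 2.35 CPM, those given palbociclib 3.23 and 3.98, indisulam 2.05 and 1.95 and both drugs 6.05 and 4.49. A549 gave 2.12 and 2.76 CPM untreated, 2.15 and 2.35 after palbociclib, 1.88 and 0.830 after indisulam and 1.70 and 1.27 after both drugs. The SUM159 rise with the combination was 1.19 ± 0.18 (adjusted p = 2.36e-05), and the A549 value was -0.71 ± 0.31 (adjusted p = 0.0615). With indisulam it was called lower in A549 (-0.83 ± 0.31, adjusted p = 0.0363), a call lost under DESeq2 (adjusted p = 0.0915) and without untreated replicate 2, indisulam replicate 2 or either palbociclib replicate (adjusted p from 0.0541 to 0.335). With palbociclib it was called higher in SUM159 (0.64 ± 0.20, adjusted p = 0.0107), a call lost without untreated replicate 1 or palbociclib replicate 2 (adjusted p = 0.0545 and 0.112).

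DDIT4, an inhibitor of the growth kinase mTORC1, rose with palbociclib in SUM159 from 225 and 226 CPM to 312 and 311 and with the combination to 302 and 313. These rises of 0.47 ± 0.035 and 0.45 ± 0.035 both had an adjusted p of 5.77e-09. A549 read 304 and 279 CPM untreated, 308 and 359 after palbociclib and 230 and 244 after indisulam. The palbociclib change there (0.20 ± 0.071, adjusted p = 0.0375) was lost under DESeq2 (adjusted p = 0.0559) and without untreated replicate 2, palbociclib replicate 2 or either indisulam replicate (adjusted p from 0.0651 to 0.478). The indisulam change (-0.30 ± 0.072) was lost without untreated replicate 1 or indisulam replicate 1 (adjusted p = 0.0539 and 0.0534). PPP1R15A, the phosphatase subunit GADD34 that reverses eIF2 phosphorylation, rose with indisulam by 0.23 ± 0.069 for A549 (adjusted p = 0.0145) against 0.24 ± 0.052 for SUM159 (adjusted p = 0.00125), and the A549 call was lost under DESeq2 (adjusted p = 0.102) and without untreated replicate 2 or either indisulam replicate (adjusted p from 0.0518 to 0.120). TRIB3, a pseudokinase that restrains ATF4, fell in A549 with indisulam (-0.30 ± 0.079) and with the combination (-0.50 ± 0.081, adjusted p = 9.71e-05), and its 3 changes in SUM159 did not pass. The call with indisulam was lost without untreated replicate 1 or indisulam replicate 2 (adjusted p = 0.124 and 0.0551).

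Of the 7 enzymes of serine, one-carbon and asparagine metabolism, 4 fell with palbociclib, 5 with indisulam and 6 with the combination in A549, beside 21.1%, 25.9% and 30.4% of all genes, and none rose there. In SUM159 the numbers that fell were 3, 4 and 4, and 1, 2 and 2 rose, beside 29%, 24.9% and 33.1% of all genes lower and 25.5%, 21.9% and 32.2% higher. The genes that rose there were ALDH1L2 with palbociclib, PHGDH and ASNS with indisulam, and ALDH1L2 and ASNS with the combination. ALDH1L2 and ASNS read at most 1.22 CPM in SUM159, so their calls rest on few reads. The members SHMT2 and MTHFD2, mitochondrial enzymes of one-carbon metabolism, fell in all 6 comparisons.

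SHMT2 levels in A549 went from 268 and 261 CPM untreated to 215 and 227 under palbociclib, 173 and 182 under indisulam and 157 and 161 under both drugs. The SUM159 levels went from 254 and 251 to 220 and 216, 177 and 179, and 166 and 172 CPM in the same order. The groups did not overlap, and the combination gave -0.73 ± 0.044 for A549 (adjusted p = 3.22e-09) against -0.58 ± 0.036 for SUM159 (adjusted p = 2.99e-10). MTHFD2 changed by -0.74 ± 0.045 and -0.59 ± 0.040 with the combination, from 232 and 228 CPM to 137 and 138 in A549 and from 228 and 231 to 150 and 156 in SUM159.

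PSPH, the last enzyme of serine synthesis, fell with indisulam from 49.2 and 45.2 to 24.8 and 25.8 CPM in A549 and from 27.2 and 28.7 to 20.3 and 20.8 CPM in SUM159. The changes were -0.90 ± 0.066 (adjusted p = 7.11e-08) and -0.44 ± 0.067 (adjusted p = 4.34e-05). With the combination it stood at 33.6 and 34.8 CPM in A549, between the indisulam and the untreated libraries. PSAT1, the enzyme before it, had smaller changes, -0.45 ± 0.048 and -0.28 ± 0.048 with indisulam. PHGDH, which opens the pathway, fell with palbociclib in both lines (-0.39 ± 0.060 and -0.25 ± 0.060) and rose with indisulam in SUM159 (0.23 ± 0.058, adjusted p = 0.00426). Its palbociclib call in SUM159 was lost with scaling to total counts (-0.14, adjusted p = 0.0559).

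ALDH1L2, a mitochondrial folate enzyme, had the largest fall against untreated cells of any member, in A549 with indisulam. Its CPM in A549 were 29.8 and 35.5 in untreated, 38.7 and 35.3 in palbociclib, 8.99 and 9.04 in indisulam and 14.99 and 12.89 in combination libraries. The indisulam libraries were lowest, at 0.277 times the untreated level (log2 -1.85 ± 0.11, adjusted p = 5.36e-09). In SUM159 the gene was barely detected, at 0.289 and 0.431 CPM untreated, 1.20 and 1.06 under palbociclib, 0.361 and 0.319 under indisulam and 0.749 and 1.14 under both drugs, so its changes there rest on few reads. The rise called there with the combination (1.35 ± 0.38, adjusted p = 0.00514) was lost without untreated replicate 1 or combination replicate 2 (adjusted p = 0.0629 and 0.0544).

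ASNS, asparagine synthetase and a textbook ATF4 target, was counted at very low levels. It read 0.813 to 1.71 CPM over the 8 A549 libraries and 0.289 to 1.22 CPM over the 8 SUM159 libraries, 6 to 40 reads a library. In SUM159 the levels were 0.289 and 0.479 CPM untreated, 0.638 and 0.796 under palbociclib, 0.922 and 0.674 under indisulam and 1.22 and 1.22 under both drugs. In A549 they were 0.930 and 1.47 CPM untreated, 0.813 and 1.10 under palbociclib, 1.71 and 1.66 under indisulam and 1.47 and 1.13 under both drugs. Exons of ASNS overlap the gene model ENSG00000284707 on the same strand, and the deposited tables set aside as ambiguous the reads that could not be given to 1 gene, a class that held 4.38% to 5.62% of each library. That model itself was given 0 to 33 reads. Of its changes, those with indisulam and the combination in SUM159 were called, and the first was lost under DESeq2 (adjusted p = 0.146) and without untreated replicate 1 or indisulam replicate 1 (adjusted p = 0.248 and 0.200). The share of ASNS reads in that class was not tested, and its values are not read as its expression level.

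Of the 3 amino acid transporters, 2 fell with palbociclib in A549 and 3 in SUM159 (21.1% and 29% of all genes). With indisulam 1 rose and 1 fell in A549, and 2 rose in SUM159 (23.3%, 25.9% and 21.9% of all genes). SLC7A5, the large neutral amino acid carrier LAT1, fell with palbociclib and rose with indisulam in both lines. Untreated A549 libraries read 1252 and 1186 CPM, those given palbociclib 994 and 1037, indisulam 1536 and 1548 and both drugs 1460 and 1293. SUM159 gave 354 and 350 CPM untreated, 275 and 284 after palbociclib, 432 and 420 after indisulam and 452 and 463 after both drugs. Palbociclib gave -0.26 ± 0.052 for A549 (adjusted p = 8.78e-04) against -0.33 ± 0.035 for SUM159 (adjusted p = 3.85e-07), and indisulam gave 0.34 ± 0.052 (adjusted p = 8.80e-05) and 0.27 ± 0.035 (adjusted p = 6.33e-06).

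SLC7A1, a carrier of arginine and lysine, fell with palbociclib, from 161 and 156 to 115 and 120 CPM in A549 and from 199 and 208 to 145 and 151 CPM in SUM159. The changes were -0.43 ± 0.048 (adjusted p = 5.63e-06) and -0.46 ± 0.040 (adjusted p = 3.99e-08). SLC3A2, the partner subunit of SLC7A5, rose in SUM159 with indisulam (0.24 ± 0.040, adjusted p = 9.98e-05) and passed in none of the 3 A549 comparisons with untreated cells. Its palbociclib change in SUM159 (-0.10 ± 0.040, adjusted p = 0.0423) was lost on leaving out any SUM159 library (adjusted p from 0.0501 to 0.238) and turned to 0.00 with scaling to total counts. Of the tRNA synthetases, which charge tRNAs with their amino acids, GARS1 fell with indisulam from 292 and 285 to 204 and 196 CPM in A549 and from 280 and 281 to 214 and 218 CPM in SUM159 (-0.53 ± 0.043 and -0.38 ± 0.037). WARS1 changed by -0.20 ± 0.050 and -0.21 ± 0.039, and its A549 call was lost without untreated replicate 1 or indisulam replicate 2 (adjusted p = 0.0610 and 0.0641). With palbociclib GARS1 rose in SUM159 (0.28 ± 0.036, adjusted p = 3.91e-06) and had a change of -0.12 ± 0.042 in A549 (adjusted p = 0.0303), which DESeq2 did not call (adjusted p = 0.0612) and which was lost without either untreated replicate or palbociclib replicate 2 (adjusted p from 0.0610 to 0.168). With the combination GARS1 changed by -0.10 ± 0.036 in SUM159 (adjusted p = 0.0263), which turned to 0.05 with scaling to total counts and was lost without the low-count filter (adjusted p = 0.0754) and without either untreated or either combination replicate (adjusted p from 0.0595 to 0.107). The palbociclib change of WARS1 was 0.36 ± 0.039 in SUM159 and 0.15 ± 0.049 in A549, the second lost under DESeq2 (adjusted p = 0.0847) and without untreated replicate 2 or either palbociclib replicate (adjusted p from 0.0512 to 0.181).

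Of the 10 ER chaperones and folding enzymes, 9 fell with indisulam in A549, where 25.9% of all genes fell. Their median log2 change was -0.41 beside 0.01 over all genes. For SUM159, 8 fell, beside 24.9% of all genes (median -0.17 beside 0.01). None rose with indisulam in either line. With palbociclib 5 rose in A549 and 7 in SUM159, beside 22% and 25.5% of all genes, and none fell. HSPA5 (BiP, chr9:125234853-125241382) is the main HSP70 chaperone of the ER and holds the sensors inactive. HYOU1 (GRP170, chr11:119044188-119057227) is its nucleotide exchange factor. Both are standard targets of ATF6.

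The promoter windows of HSPA5, HYOU1 and HERPUD1 are shown because these genes stand for the chaperone and degradation targets, and those of ATF3 and CHAC1 because they stand for the ATF4 arm. ATF3 had a second window, chr1:212614768-212615067, which held no match to any motif searched and is not printed. Windows run from 250 bases before to 50 bases after a gene's start and come from RefSeq on GRCh38.p14, where 36 of the 40 members had 1 or more windows, 51 in all. NUPR1, PSPH, SHMT2 and ALDH1L2 were not matched. Capitals mark the ER stress element ERSE (CCAAT, then 9 free bases, then CCACG) in HSPA5, ERSE-II (ATTGG, then 1 free base, then CCACG) in HYOU1 and HERPUD1, the XBP1 and ATF6 element TGACGTGG in HYOU1, and the core of the ATF4 and C/EBP element, TGATGNAA, in HERPUD1, ATF3 and CHAC1, on either strand. In HYOU1 the TGACGTGG match overlaps an ERSE-II match, since both hold CCACG or its complement.
HSPA5: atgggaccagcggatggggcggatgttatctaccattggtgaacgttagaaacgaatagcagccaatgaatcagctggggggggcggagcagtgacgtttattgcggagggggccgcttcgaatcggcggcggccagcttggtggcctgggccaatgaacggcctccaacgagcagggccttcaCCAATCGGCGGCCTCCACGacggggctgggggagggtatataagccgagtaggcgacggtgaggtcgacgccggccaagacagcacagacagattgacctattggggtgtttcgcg
HYOU1: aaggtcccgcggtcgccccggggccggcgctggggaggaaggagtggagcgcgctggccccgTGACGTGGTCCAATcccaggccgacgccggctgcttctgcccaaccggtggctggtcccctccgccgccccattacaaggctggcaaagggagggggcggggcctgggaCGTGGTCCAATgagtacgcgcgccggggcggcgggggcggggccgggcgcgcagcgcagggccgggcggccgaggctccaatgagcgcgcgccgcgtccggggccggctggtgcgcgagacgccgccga
HERPUD1: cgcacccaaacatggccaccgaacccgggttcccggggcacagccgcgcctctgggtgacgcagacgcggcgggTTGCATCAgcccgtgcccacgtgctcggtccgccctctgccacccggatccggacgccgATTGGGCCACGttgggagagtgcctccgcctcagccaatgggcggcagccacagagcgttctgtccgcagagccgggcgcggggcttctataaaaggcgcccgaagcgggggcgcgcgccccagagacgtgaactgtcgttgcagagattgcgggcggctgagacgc
ATF3: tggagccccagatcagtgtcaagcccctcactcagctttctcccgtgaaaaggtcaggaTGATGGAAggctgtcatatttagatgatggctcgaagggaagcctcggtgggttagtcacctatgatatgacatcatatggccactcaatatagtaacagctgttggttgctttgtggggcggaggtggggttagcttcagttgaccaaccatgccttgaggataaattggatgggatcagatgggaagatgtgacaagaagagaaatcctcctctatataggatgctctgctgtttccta
CHAC1: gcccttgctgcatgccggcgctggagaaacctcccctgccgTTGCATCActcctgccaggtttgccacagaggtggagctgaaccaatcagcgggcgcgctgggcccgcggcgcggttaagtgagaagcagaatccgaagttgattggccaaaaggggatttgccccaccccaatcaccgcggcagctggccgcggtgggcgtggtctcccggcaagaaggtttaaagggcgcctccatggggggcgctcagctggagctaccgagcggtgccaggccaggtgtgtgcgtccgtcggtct
The windows lie at chr9:125241294-125241593 (HSPA5, minus strand), chr11:119057156-119057455 (HYOU1, minus strand), chr16:56931892-56932191 (HERPUD1, plus strand), chr1:212565157-212565456 (ATF3, plus strand) and chr15:40953221-40953520 (CHAC1, plus strand) and read 5′ to 3′ in the direction of the gene. ERSE was found in 27 of all 35116 windows (0.0769%) and in those of 5 members, XBP1, HSPA5, HSP90B1, CRELD2 and PDIA6. ERSE-II was found in 19 windows (0.0541%) and in those of SDF2L1, HYOU1 and HERPUD1. TGATGNAA was found in 3.62% of all windows and in those of 7 members, ATF3, CHAC1, ASNS, SLC7A1, SLC3A2, GARS1 and HERPUD1. TGACGTGG was in 0.729% of all windows and in that of HYOU1 among the members.

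The 8 members with ERSE or ERSE-II in a window moved in 1 direction with each single drug where they passed. With indisulam 7 of the 8 fell and none rose in each line, with changes from -1.24 (HYOU1) to -0.07 (HSP90B1) in A549 and from -0.70 (HYOU1) to -0.04 (HSP90B1) in SUM159. With palbociclib 5 rose and none fell in each line. Among all genes, 23.3% rose and 25.9% fell with indisulam in A549, and 21.9% and 24.9% in SUM159. With palbociclib 22% rose in A549 and 25.5% in SUM159. These directions were not particular to these elements. DNAJB9, MANF, PDIA4 and EDEM1, without either element, also fell with indisulam in both lines. DNAJB9, EDEM1 and SEL1L rose with palbociclib in both, though SEL1L rose with indisulam in SUM159. The 7 members with TGATGNAA showed no common direction: with indisulam 1 rose and 4 fell in A549, and 3 rose and 2 fell in SUM159. These letters are described as they stand in the windows, and binding was not measured.

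HSPA5 had the largest difference between the lines in response to indisulam among the chaperones. The A549 duplicates were at 703 and 699 CPM without drug, 744 and 755 under palbociclib, 411 and 404 under indisulam and 407 and 415 under both. The SUM159 duplicates were at 1395 and 1373 CPM without drug, 1500 and 1446 under palbociclib, 1262 and 1253 under indisulam and 1217 and 1243 under both. Both lines had lower libraries with indisulam, to 0.581 times the untreated level for A549 (log2 -0.78 ± 0.037, adjusted p = 7.98e-10) against 0.909 times for SUM159 (-0.14 ± 0.035, adjusted p = 0.00362). With scaling to total counts the SUM159 call with indisulam was lost (-0.08, adjusted p = 0.0531). The palbociclib changes of 0.10 ± 0.036 in A549 and 0.09 ± 0.035 in SUM159 were called (adjusted p = 0.0432 and 0.0367), but the A549 call was lost under DESeq2 (adjusted p = 0.154) and on leaving out any single A549 library (adjusted p from 0.0611 to 0.180). The SUM159 call was lost without untreated replicate 2 or palbociclib replicate 1 (adjusted p = 0.135 and 0.131) and with the compared groups fitted alone (adjusted p = 0.0625).

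HYOU1 fell with indisulam in both lines by the largest amount of any chaperone. A549 gave 207 and 206 CPM untreated, 242 and 244 after palbociclib, 83.1 and 91.9 after indisulam and 86.0 and 95.4 after both drugs. Its CPM in SUM159 were 308 and 318 in untreated, 341 and 340 in palbociclib, 191 and 196 in indisulam and 210 and 208 in combination libraries. The indisulam change was -1.24 ± 0.055 for A549 (0.424 times, adjusted p = 5.02e-10) against -0.70 ± 0.035 for SUM159 (0.618 times, adjusted p = 1.85e-10). Palbociclib moved it the other way, by 0.23 ± 0.052 (adjusted p = 0.00219) and 0.12 ± 0.034 (adjusted p = 0.00676), the second lost without untreated replicate 1 (adjusted p = 0.0652).

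DNAJB9 (ERdj4), a co-chaperone of HSPA5 that depends on XBP1 and represses IRE1, rose with palbociclib and fell with indisulam in both lines. Its CPM in A549 were 14.6 and 15.9 in untreated, 29.6 and 28.0 in palbociclib, 11.9 and 11.8 in indisulam and 16.4 and 16.5 in combination libraries. Untreated SUM159 libraries read 14.6 and 16.0 CPM, those given palbociclib 24.6 and 22.1, indisulam 12.5 and 12.4 and both drugs 16.97 and 17.16. The palbociclib rises were 1.89-fold for A549 (log2 0.92 ± 0.077, adjusted p = 2.52e-07) against 1.52-fold for SUM159 (0.61 ± 0.078, adjusted p = 4.13e-06). The combination libraries lay between those of the single drugs. The indisulam change in SUM159, -0.30, was lost without untreated replicate 2 or indisulam replicate 2 (adjusted p = 0.107 and 0.0565).

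Among the other folding genes, MANF, a secreted ER stress protein, changed with indisulam by -0.56 ± 0.053 for A549 (adjusted p = 9.61e-07) against -0.21 ± 0.041 for SUM159 (adjusted p = 4.78e-04). CRELD2, another ER stress-induced protein, changed by -0.56 ± 0.078 and -0.19 ± 0.055, the second lost without untreated replicate 2 or indisulam replicate 1 (adjusted p = 0.0672 and 0.128). The disulfide isomerases PDIA4 and PDIA6 changed by -0.38 ± 0.037 and -0.26 ± 0.037 in A549 and by -0.16 ± 0.037 and -0.10 ± 0.039 in SUM159. The SUM159 call of PDIA6 was lost without either untreated or either indisulam replicate or combination replicate 2 (adjusted p from 0.0523 to 0.263). With the combination in SUM159, PDIA4 and PDIA6 were called lower (-0.11 and -0.14), and both turned to the other side, 0.04 and 0.01, with scaling to total counts, and both were lost without combination replicate 1 (adjusted p = 0.133 and 0.0679), PDIA4 also without untreated replicate 1 (adjusted p = 0.106). HSP90B1 (GRP94), the HSP90 of the ER, did not pass with indisulam alone in either line (-0.07 ± 0.038 and -0.04 ± 0.036). It fell in A549 with the combination (-0.28 ± 0.038, adjusted p = 1.57e-05).

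DNAJC3 (P58IPK), a co-chaperone that also inhibits PERK, read 74.5 and 80.1 CPM in untreated A549, 104 and 104 after palbociclib, 69.4 and 66.2 after indisulam and 83.7 and 79.8 after both drugs. Its rise with palbociclib was 0.43 ± 0.051 (adjusted p = 9.52e-06). The indisulam change of -0.19 ± 0.053 (adjusted p = 0.00828) was lost without untreated or indisulam replicate 2 (adjusted p = 0.126 and 0.105), and none of its 3 changes in SUM159 passed. SDF2L1, an ER protein that works with DNAJ co-chaperones, fell with indisulam in SUM159 by 0.40 ± 0.065 on the log2 scale (adjusted p = 9.35e-05). Its A549 change of -0.43 ± 0.17 (adjusted p = 0.0449) was lost under DESeq2 (adjusted p = 0.231), with scaling to total counts (adjusted p = 0.0677) and without untreated replicate 1 or either indisulam replicate (adjusted p from 0.158 to 0.325). With palbociclib CRELD2 rose by 0.28 ± 0.071 in A549, which DESeq2 did not call (adjusted p = 0.0680), and by 0.35 ± 0.052 in SUM159.

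The 3 genes of ER-associated degradation, which returns misfolded ER proteins to the cytosol, all rose with palbociclib in both lines. The shares of all genes that rose were 22% in A549 and 25.5% in SUM159. The calls of SEL1L (adjusted p = 0.0811) and EDEM1 (adjusted p = 0.0908) in SUM159 were lost without untreated replicate 1, and that of SEL1L in A549 under DESeq2 (adjusted p = 0.0602) and without untreated replicate 1 or 2 (adjusted p = 0.0658 and 0.0647). HERPUD1, a membrane scaffold of the retrotranslocation machinery, rose from 65.5 and 61.5 to 90.2 and 91.4 CPM in A549 and from 69.6 and 68.8 to 103 and 98.8 CPM in SUM159. These were rises of 0.52 ± 0.050 (adjusted p = 1.29e-06) and 0.54 ± 0.043 (adjusted p = 1.22e-08). With indisulam it fell to 47.3 and 45.2 CPM in A549 (-0.46 ± 0.054) and to 59.4 and 60.4 CPM in SUM159 (-0.21 ± 0.045).

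EDEM1, which selects misfolded glycoproteins for degradation, fell with indisulam and the combination. Untreated A549 libraries read 83.4 and 83.5 CPM, those given palbociclib 95.0 and 101, indisulam 45.8 and 44.3 and both drugs 44.2 and 43.1. SUM159 gave 141 and 148 CPM untreated, 163 and 156 after palbociclib, 97.6 and 94.8 after indisulam and 96.8 and 95.8 after both drugs. The indisulam change was -0.89 ± 0.052 for A549 (adjusted p = 6.30e-09) against -0.59 ± 0.043 for SUM159 (adjusted p = 1.05e-08). SEL1L, the adaptor of the HRD1 ubiquitin ligase, did not share these falls: its change with indisulam was 0.05 ± 0.043 for A549 (adjusted p = 0.307) against 0.16 ± 0.039 for SUM159 (adjusted p = 0.00329), lost without untreated replicate 1 (adjusted p = 0.0610).

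The combination was also compared with each drug alone. Against palbociclib, it lowered 26 members and raised 5 in A549 (27.8% and 23.7% of all genes), and lowered 18 and raised 11 in SUM159 (24.9% and 23.4%). All 10 chaperones and folding enzymes were lower in A549 in this comparison, with HYOU1 at -1.42 ± 0.055 (adjusted p = 1.24e-10), and 8 of 10 in SUM159. Against indisulam, it raised 10 members and lowered 11 in A549 (18.6% and 20.1% of all genes), and raised 14 and lowered 7 in SUM159 (24.9% and 28%). NUPR1 was higher in the combination than in either drug alone in both lines, by 1.22 ± 0.074 over indisulam and 0.69 ± 0.068 over palbociclib in SUM159, and by 0.42 ± 0.098 and 0.93 ± 0.10 in A549. The A549 difference from indisulam was lost without indisulam replicate 2 (0.34, adjusted p = 0.0588).

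The A549 count against indisulam dropped to 12 without indisulam replicate 2, and with scaling to total counts the splits against indisulam became 11 higher and 6 lower in A549 and 26 higher and 4 lower in SUM159. DESeq2 gave 13 higher and 3 lower in SUM159.

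A departure from additive effects, the change with both drugs minus the sum of the 2 single-drug changes on the log2 scale, was called for few members. In A549 it was called above 0 for STC2 (0.40 ± 0.087, adjusted p = 0.0231) and PSPH (0.37 ± 0.091, adjusted p = 0.0406) and below 0 for DNAJB9 (-0.44 ± 0.12, adjusted p = 0.0483), where 1.49% of all genes were called above and 2.05% below 0. In SUM159 it was called for SLC7A5 (0.44 ± 0.049, adjusted p = 1.95e-04) and SLC7A1 (0.22 ± 0.056, adjusted p = 0.0376), both above 0, beside 2.22% above and 2.16% below over all genes. The 3 A549 calls were each lost under DESeq2 (adjusted p from 0.0585 to 0.225). Leaving out any 1 untreated, palbociclib or indisulam library of A549 gave 0 calls, and leaving out combination replicate 1 or 2 gave 4 and 6. SLC7A1 was lost on leaving out any SUM159 library other than palbociclib replicate 2, and SLC7A5 was called each time.

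Before treatment the lines differed in most members. In the fit over all 16 libraries, 12 members were higher and 22 lower in untreated SUM159 than in untreated A549, where 38.3% and 38% of 17764 genes were. With scaling to total counts the median over all genes shifted by 0.10 and the split was 13 higher and 18 lower. All 7 serine, one-carbon and asparagine enzymes were called lower in SUM159, down to -6.61 ± 0.19 for ALDH1L2. The smallest change, -0.14 for MTHFD2, was lost with scaling to total counts (-0.04, adjusted p = 0.463) and without SUM159 untreated replicate 1 or any A549 library other than palbociclib replicate 2 and indisulam replicate 1 (adjusted p from 0.0620 to 0.621). The transporter pair SLC7A5 and SLC3A2 was lower as well (-1.92 ± 0.048 and -1.75 ± 0.059), as was VLDLR (-3.31 ± 0.092). The other transporter, SLC7A1, was higher. Of the 10 chaperones and folding enzymes 6 were higher and 3 lower in SUM159. Among the 6 were CRELD2 (1.10 ± 0.065), HSPA5 (0.85 ± 0.036) and MANF (0.84 ± 0.046). STC2 was higher by 1.50 ± 0.048.

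The responses of the lines were then compared as interactions, the change in SUM159 minus that in A549. With palbociclib 10 members were called above 0 and 1, DNAJC3, below, beside 9.65% and 3.15% of all genes. With indisulam 14 were above and 1, ATF3, below, beside 8.04% and 6.97%. With the combination 31 were above and 1, ATF3, was below, beside 19.1% and 11.8%, and the median over the members was 0.38 beside 0.10 over all genes. The combination count was 22 above and 2 below with RLE scaling and 21 and 2 under DESeq2. Leaving out any 1 A549 library lowered this count each time. The median over the members was then 0.175 to 0.265, and that over all genes shifted by -0.12 to -0.16. The palbociclib split was 8 above and 2 below with RLE scaling and 7 and 2 under DESeq2. Without any 1 A549 library it was 4 to 5 above and 3 to 7 below, and the median over all genes shifted by -0.13 to -0.18. Leaving out SUM159 untreated replicate 2 or SUM159 indisulam replicate 2 took the indisulam count to 9 and 8, and leaving out A549 untreated replicate 2 took the palbociclib count to 7.

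With the combination the largest differences were those of ALDH1L2, CHAC1, ASNS and STC2, at 2.64 ± 0.41, 1.96 ± 0.36, 1.58 ± 0.48 and 1.22 ± 0.069. Of these, STC2 rests on levels of at least 29.3 CPM in every library. The others rest on low counts, ALDH1L2 in SUM159 and CHAC1 and ASNS in both lines. With indisulam the interaction of HSPA5 was 0.65 ± 0.051 (adjusted p = 5.72e-09), that of STC2 0.96 ± 0.068 (adjusted p = 1.08e-09) and that of ATF3 -0.62 ± 0.19 (adjusted p = 0.0255). DESeq2 did not call the differences of ATF3 with indisulam (adjusted p = 0.0634) or of ASNS under both drugs (adjusted p = 0.0705). That of ATF3 was also lost without A549 untreated replicate 2, A549 indisulam replicate 1, either SUM159 untreated replicate or SUM159 indisulam replicate 2 (adjusted p from 0.0598 to 0.119). That of ASNS was lost without A549 untreated or combination replicate 2 or SUM159 untreated replicate 1 (adjusted p from 0.0622 to 0.150). With palbociclib NUPR1 rose more in SUM159 by 1.11 ± 0.16 (adjusted p = 2.98e-05). Differences of ALDH1L2 with palbociclib (1.54) and with indisulam (1.76) were called too, and both were lost without SUM159 untreated replicate 1 (adjusted p = 0.109 and 0.119). That with indisulam was also lost without either SUM159 indisulam replicate (adjusted p = 0.134 and 0.102), and that of DDIT3 with palbociclib (0.78) without A549 untreated or palbociclib replicate 2 (adjusted p = 0.0643 and 0.0777).

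**Figure D4:**
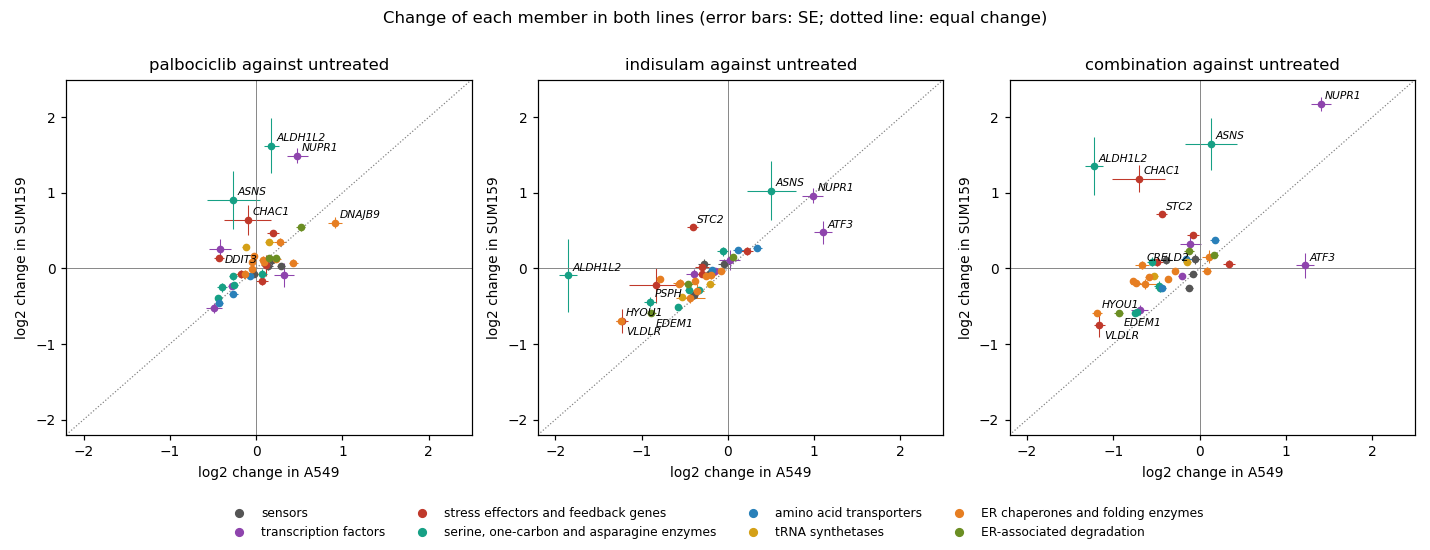
Log2 change of each of the 40 members in A549 (x axis) and SUM159 (y axis) for each treatment against untreated, coloured by role, with SE as error bars and a dotted line of equal change. With indisulam the chaperones lie below 0 in both lines and above the dotted line, and with the combination ALDH1L2, CHAC1 and STC2 lie below 0 in A549 and above 0 in SUM159.

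Other genes of these pathways were counted from 4 lists of related genes. The first list held 12 genes, namely eIF2 kinases, eIF2 and eIF2B subunits and PPP1R15B, a relative of the phosphatase subunit PPP1R15A. Of these, 8 fell with the combination in each line, and 3 rose in A549 and 1 in SUM159. The shares of all genes lower were 30.4% in A549 and 33.1% in SUM159, and those higher 27.4% and 32.2%, so the 3 rises in A549 lay near the background. EIF2AK4 (GCN2), which senses uncharged tRNA, changed by -1.14 ± 0.060 in A549 (adjusted p = 5.74e-10), and EIF2B5, a catalytic subunit of the eIF2 exchange factor, by -0.93 ± 0.066. In SUM159 the largest falls among those with at least 5 CPM were those of EIF2B2 (-0.66 ± 0.057) and EIF2B3 (-0.64 ± 0.063). EIF2AK2 (PKR), a sensor of double-stranded RNA, rose by 0.40 ± 0.051 in A549 and 0.14 ± 0.042 in SUM159, and EIF2B1 rose by 0.37 ± 0.044 in A549.

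Of 22 other ATF4 targets, the combination raised 4 and lowered 13 in A549 (27.4% and 30.4% of all genes, median -0.23 beside 0.00). In SUM159 it raised 13 and lowered 7 (32.2% and 33.1% of all genes, median 0.31 beside 0.01). The 7 that fell in SUM159 lay near the 33.1% of all genes lower there. SLC7A11, the cystine carrier, changed by -1.92 ± 0.055 in A549 and -1.10 ± 0.057 in SUM159. KLHL24 rose by 1.56 ± 0.11 and 1.51 ± 0.11, and the stress hormone gene GDF15 rose in A549 by 0.95 ± 0.12. The neutral amino acid carrier SLC1A4 changed in A549 by -1.26 ± 0.10, and the glycine carrier SLC6A9 rose in SUM159 by 1.45 ± 0.11, where ALDH18A1, an enzyme of proline synthesis, changed by -0.57 ± 0.036.

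Of 18 other tRNA synthetases, 13 fell with the combination in each line, while 2 rose in A549 and 4 in SUM159. Among all genes, 30.4% fell and 27.4% rose with the combination in A549, and 33.1% and 32.2% in SUM159. IARS1 and EPRS1 changed in A549 by -0.95 ± 0.039 and -1.04 ± 0.040, and IARS1 and MARS1 changed in SUM159 by -0.75 ± 0.036 and -0.66 ± 0.045. CARS1 rose in SUM159 by 0.32 ± 0.046, and SARS1 rose in both lines (0.14 and 0.16). Of 35 other ER folding, degradation and secretory genes, 5 rose and 19 fell with the combination in A549. In SUM159, 7 rose and 16 fell of the 34 tested, beside the same shares of all genes. DNAJC10, an ER disulfide reductase, changed by -1.34 ± 0.045 and -0.74 ± 0.043, and the thioredoxin-like TXNDC11 by -1.23 ± 0.068 and -1.03 ± 0.053. EDEM3 (0.33 ± 0.058) and CREB3 (0.30 ± 0.066) rose in A549, and WFS1 (0.89 ± 0.072) and SIL1 (0.31 ± 0.050) in SUM159. With palbociclib alone, 22 of these 35 rose and 3 fell in A549, and 13 rose and 5 fell of 34 in SUM159. The shares of all genes were 22% and 25.5% higher and 21.1% and 29% lower.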

How the data were processed

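RNA was sequenced from 16 libraries, 2 technical duplicates for each of 8 combinations of line and treatment. Per the study's methods, poly(A)-selected, strand-specific libraries were read as 75 bp paired ends, trimmed with SeqPurge and aligned with HISAT2 (2.2.1 in the submitters' processing notes) to GRCh38. The processing notes also name HTSeq, a read counter. The strand setting and the annotation release are not given in the sources used here. The authors deposited raw counts per Ensembl gene, with no normalization. Of 58676 gene IDs, 58207 matched GENCODE 44, from which symbols were taken. Tail lines without a gene (no feature, from 3.89% to 6.78% of a library, and ambiguous, from 4.38% to 5.62%) were left out.

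From the counts, genes passing filterByExpr were scaled by TMM and tested with edgeR 4.0.16 (R 4.3.3) by quasi-likelihood on the 8 libraries of each line, and on all 16 for comparisons between lines. P-values were adjusted by Benjamini-Hochberg over all genes tested and called under 0.05. The SE of a log2 change is its size divided by the square root of the test's F. The test was checked on simulated data. CPM are counts scaled to a common library size. Gene counts per library gave a smallest readable level of 3 counts, and this covers counting error only. Alternatives were DESeq2 1.42.0, RLE and total-count scaling, no low-count filter, a replicate block, fits of the compared groups alone and leaving out each library. The members and lists were chosen with earlier results of these data known. The genes described with values were ATF4, DDIT3, ASNS, XBP1 and HSPA5, the 3 largest called rises and falls in each comparison with untreated cells among members averaging at least 5 CPM and moving the same way in both same-numbered pairs, and the 4 largest called differences between the lines per treatment. From each list of related genes, the 2 largest rises and falls were named, except 1 gene that is not reported here.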

Additional observations from a re-analysis of the deposited data

Results flagged for a closer look

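For the following members the interaction term of edgeR's quasi-likelihood test over 16 libraries passed (SUM159 change minus A549 change, log2). With palbociclib the difference was 1.54 for ALDH1L2 (adjusted p = 0.0109), whose changes were 0.18 in A549 and 1.63 in SUM159. It was 1.11 for NUPR1 (adjusted p = 2.98e-05), from 0.48 and 1.49. For DDIT3 it was 0.78 (adjusted p = 0.00423), from -0.42 and 0.26, and for STC2 0.67 (adjusted p = 2.00e-07), from -0.43 and 0.14.

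With indisulam the difference was 1.76 for ALDH1L2 (adjusted p = 0.0302), from -1.85 in A549 and -0.09 in SUM159. STC2 differed by 0.96 (adjusted p = 1.08e-09), from -0.41 and 0.55, and HSPA5 by 0.65 (adjusted p = 5.72e-09), from -0.78 and -0.14. ATF3 rose less in SUM159, by a difference of -0.62 (adjusted p = 0.0255), from 1.11 and 0.48.

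With the combination the difference was 2.64 for ALDH1L2 (adjusted p = 2.34e-05), from -1.22 and 1.35. CHAC1 differed by 1.96 (adjusted p = 2.02e-04), from -0.71 and 1.19, and ASNS by 1.58 (adjusted p = 0.0132), from 0.13 and 1.65. STC2 differed by 1.22 (adjusted p = 4.06e-12), from -0.44 and 0.72. CHAC1 was at low counts in both lines, and ALDH1L2 was barely detected in SUM159. ASNS was at very low counts and its values are not read as its expression level. Its difference was lost under DESeq2 (adjusted p = 0.0705), as was that of ATF3 with indisulam (adjusted p = 0.0634). These 2 differences, that of DDIT3 with palbociclib and those of ALDH1L2 with each single drug were also lost on leaving out 1 library, with adjusted p from 0.0598 to 0.150. The lines also grew in different media, so line and medium cannot be told apart.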

How the results depend on the processing

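Of 91 alternative counts of members called, 86 stayed within 1.5 times the reported count, and of 1981 alternative values of single members, 1841 kept direction and call. The exceptions in counts were palbociclib in A549 (16 under DESeq2), the departure from additivity in A549 (1 under DESeq2, 8 without a low-count filter) and that in SUM159 (1 with scaling to total counts and 1 with the replicate block). Same-numbered libraries did not deviate together (correlations from -0.114 to 0.114), so a number does not pair libraries. With the replicate block the other counts stayed close, for example 23 members for palbociclib in A549 and 32 for indisulam. The block took the palbociclib change of HSPA5 in SUM159 out of the called set (adjusted p = 0.0593). Leaving out 1 library gave 0 to 6 members for the A549 departure, 1 to 3 for the SUM159 departure, 12 to 21 for the combination against indisulam in A549, and 7 to 12, 8 to 17 and 20 to 32 for the palbociclib, indisulam and combination differences between the lines.

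Scaling to total counts moved the median over all genes by 0.11 for palbociclib and 0.15 for the combination in SUM159, where the splits became 23 higher and 6 lower and 21 higher and 9 lower. Under it ATF4 turned to 0.0272 with indisulam and 0.0457 with the combination, GARS1, PDIA4 and PDIA6 to 0.0511, 0.0420 and 0.0060 with the combination, and SLC3A2 to 0.0040 with palbociclib, all in SUM159. Leaving out 1 library took ASNS in A549 from -0.5706 to 0.0834 with palbociclib and between -0.1710 and 0.4827 with the combination. DDIT3 with indisulam ran between -0.0718 and 0.1216 in A549 and between -0.0246 and 0.2730 in SUM159, and none of these was called. The cause of these changes was not tested. Duplicates are technical, so spread between cultures is not measured, and members near 1 CPM are limited by depth.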
